A study of Mus musculus with 6 samples.

Results

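The nuclear genes of the oxidative phosphorylation system were taken from a table of gene expression in cultured mouse interneurons by their symbols: all Nduf genes of the a, b, c, s and v series with Ndufab1, the 4 Sdh genes, the Uqcr genes, Cyc1, the subunits of cytochrome c oxidase from Cox4 to Cox8, and all genes beginning with Atp5, without pseudogenes. This gave 86 of the 55335 genes in the table: 36 of complex I, 4 of complex II, 9 of complex III, 20 of complex IV, 15 of complex V, and 2 (Atp5s and Atp5sl) that carry such a symbol but encode no subunit. Cox7a2l is no subunit of the basic enzyme of complex IV, but it was counted below among the subunit genes and the Cox7a isoforms. The libraries came from primary GABAergic interneurons of wild-type C57BL/6 embryos at embryonic day 14.5, grown on poly-L-lysine in neurobasal medium with B27. All cultures received adeno-associated virus (AAV) for 12 hours. In 3 libraries the virus was AAV-shbrpf1, which carries a short hairpin against Brpf1, and in the other 3 it was AAV-scramble, so that AAV infection is shared by both groups. The study asks what Brpf1, a scaffold subunit of histone acetyltransferase complexes, does in GABAergic interneurons from the medial ganglionic eminence. One label field calls the source neural progenitor cells. The sources used here do not give the promoter that drives the hairpin, the share of cells infected or whether libraries of a group came from separate cultures, so p-values measure the spread between these libraries, which may be technical.

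Oxidative phosphorylation makes most of the ATP of neurons. Complexes I and II take electrons from NADH and succinate and pass them through ubiquinone to complex III, which hands them by way of cytochrome c to complex IV, where oxygen is reduced; complexes I, III and IV pump protons, and complex V, the ATP synthase, uses the proton gradient to make ATP. Complexes I, III, IV and V are built from subunits encoded both in the nucleus and in the mitochondrial genome, and complex II from nuclear genes alone. Nuclear respiratory factor 1 (NRF1), the ETS factor GABP (also called NRF2) and YY1 are known regulators of the nuclear genes, and several subunits of complexes IV and V come in isoforms that differ between tissues.

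Short strings bound by these factors were looked for in the promoters, since the members are known to be controlled together. RefSeq (GRCm38.p6) gave 76 windows, each from 250 bases before to 50 bases after a transcription start, for 70 of the 86 members. The strings were GCGCA, any base, then GCGC for NRF1, CCGGAAG for ETS factors and AANATGGCG for YY1, each read on both strands; none of these strings contains another. The NRF1 string stood in 18 member windows (23.7%), against 4.6% of all 32851 promoters and 6.64% of those of protein-coding genes. The ETS string stood in 16 member windows (21.1%), against 8.86% of all promoters and 11.9% of coding ones. The YY1 string stood in 12 member windows (15.8%), against 2.38% and 3.28% on the same counts. At least 1 of the 3 strings was found in 40 member windows (52.6%), which belong to 38 genes, against 14.2% of all and 19.4% of coding promoters. The median GC content of the member windows was 57.5%, and that of coding promoters 57.0%. By complex, 17 of 32 matched members of complex I, 3 of 3 of complex II, 3 of 5 of complex III, 3 of 14 of complex IV and 11 of 14 of complex V held a string. The 14 of complex IV included the tissue isoforms Cox6b2, Cox7a1, Cox7b2 and Cox8b and also Cox7a2l, none of them with a string. Cox4i1 and Cox6c were among those without a window. A string is a description of the letters and no evidence of binding. Below are 4 windows, 5′ to 3′ in the direction of the gene, with the matched strings in capitals. They show an NRF1 string together with an ETS string (Cox6a1, chr5:115348909-115349208, minus strand), a pair of NRF1 strings within the 50 bases after the start (Uqcrc1, chr9:108936398-108936697, plus strand), a YY1 string beside an ETS string (Atp5j, chr16:84834927-84835226, minus strand) and a YY1 string alone (Ndufs4, chr13:114388045-114388344, minus strand). All 4 genes also passed the test between replicate numbers in the results that follow, as did 58.0% of the tested members and 69.4% of all genes. A link between the strings and these differences was not tested.
Cox6a1: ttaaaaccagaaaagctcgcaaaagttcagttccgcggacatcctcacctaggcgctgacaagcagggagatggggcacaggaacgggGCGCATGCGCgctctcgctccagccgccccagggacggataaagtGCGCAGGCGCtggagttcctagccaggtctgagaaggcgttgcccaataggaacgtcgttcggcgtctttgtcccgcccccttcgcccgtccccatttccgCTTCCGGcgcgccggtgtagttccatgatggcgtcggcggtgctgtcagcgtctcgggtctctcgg
Uqcrc1: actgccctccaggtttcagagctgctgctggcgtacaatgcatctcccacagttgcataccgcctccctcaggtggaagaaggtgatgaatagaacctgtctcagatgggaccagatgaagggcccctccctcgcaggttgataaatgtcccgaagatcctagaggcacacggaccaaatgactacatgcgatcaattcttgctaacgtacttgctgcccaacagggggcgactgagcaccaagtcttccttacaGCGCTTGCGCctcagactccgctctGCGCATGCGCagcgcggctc
Atp5j: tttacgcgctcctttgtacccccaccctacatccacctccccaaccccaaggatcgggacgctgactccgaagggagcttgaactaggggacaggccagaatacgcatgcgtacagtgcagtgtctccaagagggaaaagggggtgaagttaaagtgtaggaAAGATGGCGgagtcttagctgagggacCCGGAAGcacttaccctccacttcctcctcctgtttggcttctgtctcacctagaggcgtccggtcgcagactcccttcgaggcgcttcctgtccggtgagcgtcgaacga
Ndufs4: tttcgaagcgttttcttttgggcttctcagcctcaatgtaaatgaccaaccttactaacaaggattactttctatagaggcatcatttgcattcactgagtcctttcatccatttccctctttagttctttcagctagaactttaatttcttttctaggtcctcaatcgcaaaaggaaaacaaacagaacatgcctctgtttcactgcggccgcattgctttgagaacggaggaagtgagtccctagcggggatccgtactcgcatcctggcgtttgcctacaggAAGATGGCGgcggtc

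Brpf1 checks the labels. It had 3.13, 4.58 and 3.78 FPKM in libraries 1, 2 and 3 of AAV-shbrpf1, against 3.29, 5.45 and 4.84 FPKM in those of AAV-scramble (FPKM counts fragments relative to transcript length and library depth). The groups overlapped, and the log2 difference of −0.18 ± 0.26 (SE, 95% interval −0.79 to 0.42) did not pass limma (adjusted p = 1). An exact two-sided permutation test gave p = 0.4, where 3 against 3 cannot go below 0.1. Brpf1 was lower under AAV-shbrpf1 in 3 of 3 pairs of libraries with the same number (11.3% of all genes were), and with the number as a block the interval of the difference was −0.44 to 0.072 (limma adjusted p = 1). With 1 library left out the difference ran from −0.36 (without AAV-scramble library 1) to −0.063 (without AAV-scramble library 2). The depth estimated from low values ran from 13.1 to 21.1 M fragments. All 10 markers of GABAergic interneurons were measured, with summed levels of 866 to 1098 FPKM under AAV-shbrpf1 and 830 to 1298 FPKM under AAV-scramble. Radial glia markers, 7 of 8 of them measured, summed to 286 to 939 FPKM under AAV-shbrpf1 and 317 to 892 FPKM under AAV-scramble, and they were present in every library. All 6 markers of the oligodendrocyte lineage, all 6 of astrocytes, all 5 of cycling cells and 4 of 9 of mural cells (pericytes and smooth muscle) also passed the filter, and no glutamatergic, endothelial, microglial or erythroid marker did.

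As a group the members were among the most abundant transcripts of these cells. Of 86, 81 averaged 1 FPKM or more in at least 1 of the groups and were tested, and 77 were above 5 FPKM in each of the 6 libraries. The 5 that did not pass were Cox4i2, Cox7b2, Cox8b, Cox8c and Ndufa4l2, all of them alternative isoforms. Ranked by mean FPKM among 17411 protein-coding genes with a mean above 0, the median member lay at percentile 96.5, with 49 members in the top 5 percent and 64 in the top 10 percent. The FPKM of the 84 subunit genes summed to 5011, 6226 and 4962 in AAV-shbrpf1 libraries 1 to 3 and to 4927, 5479 and 5455 in AAV-scramble libraries 1 to 3. The means of 5400 ± 716 and 5287 ± 312 FPKM (SD, n = 3 each) differed by less than the spread of either group. AAV-shbrpf1 library 2 held the highest sum, and the groups overlapped. In bulk RNA, fewer cells of a type and less RNA per cell cannot be told apart.

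**Figure D1:**
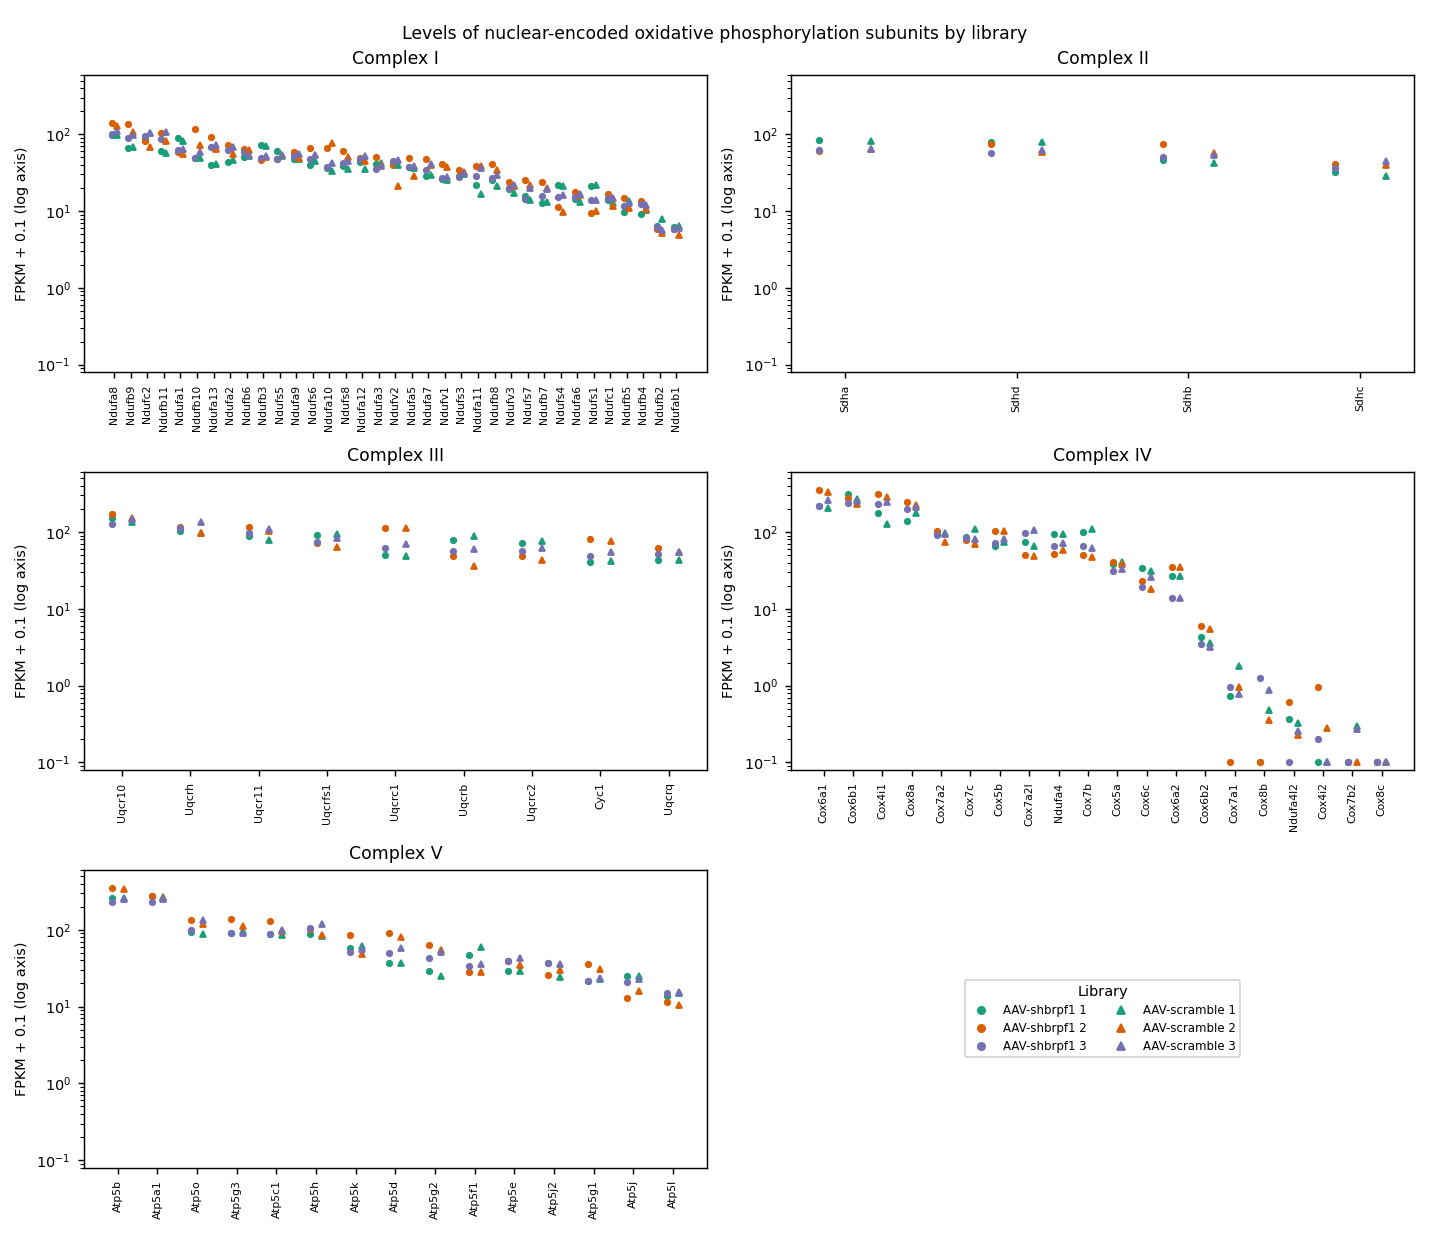
Levels of 83 subunit genes by library. Each panel is a complex and each position on the horizontal axis a gene, ordered by mean level; the vertical axis is FPKM + 0.1 on a log scale; circles are AAV-shbrpf1 and triangles AAV-scramble libraries, and the colour gives the replicate number. Circles and triangles of one colour lie close together, and 6 alternative isoforms of complex IV at the right of its panel, from Cox7a1 to Cox8c, lie near the bottom of the scale.

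No member differed between the viruses by the test across all genes. Of the 81 tested members, 0 passed limma at an adjusted p under 0.05 (background: 0.0% of 12792 genes), and 0 did so with the replicate number as a block (background 0.0%). At an unadjusted p under 0.05 the counts of members were also 0 in both fits, against 0.18% of all genes without the block and 2.19% with it. The median log2 difference, AAV-shbrpf1 minus AAV-scramble on the log2(FPKM + 1) scale, was 0.024 over the members and −0.023 over all genes. By complex it was 0.043 in complex I, 0.016 in II, 0.024 in III, 0.0029 in IV and 0.010 in V. The median over the members was 0.0048 between the libraries numbered 1, 0.17 between those numbered 2 and −0.11 between those numbered 3, so its sign was not shared by the 3 pairs. Without AAV-shbrpf1 library 2 the median was −0.056. Members whose groups did not overlap numbered 0 (background 1.07%).

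The width of the intervals says what size of change these libraries could have missed. With the replicate block, the 95% interval lay within a 2-fold change either way for 80 of 81 members, all except Cox7a1. It lay within 1.5-fold for 76, the exceptions being Atp5k, Cox7a1, Ndufa5, Ndufb10 and Ndufv2. Without the block, 73 members were inside 2-fold and 8 inside 1.5-fold, and the median distance from the estimate to the end of its interval was 0.65 on the log2 scale, against 0.26 with the block.

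**Figure D2:**
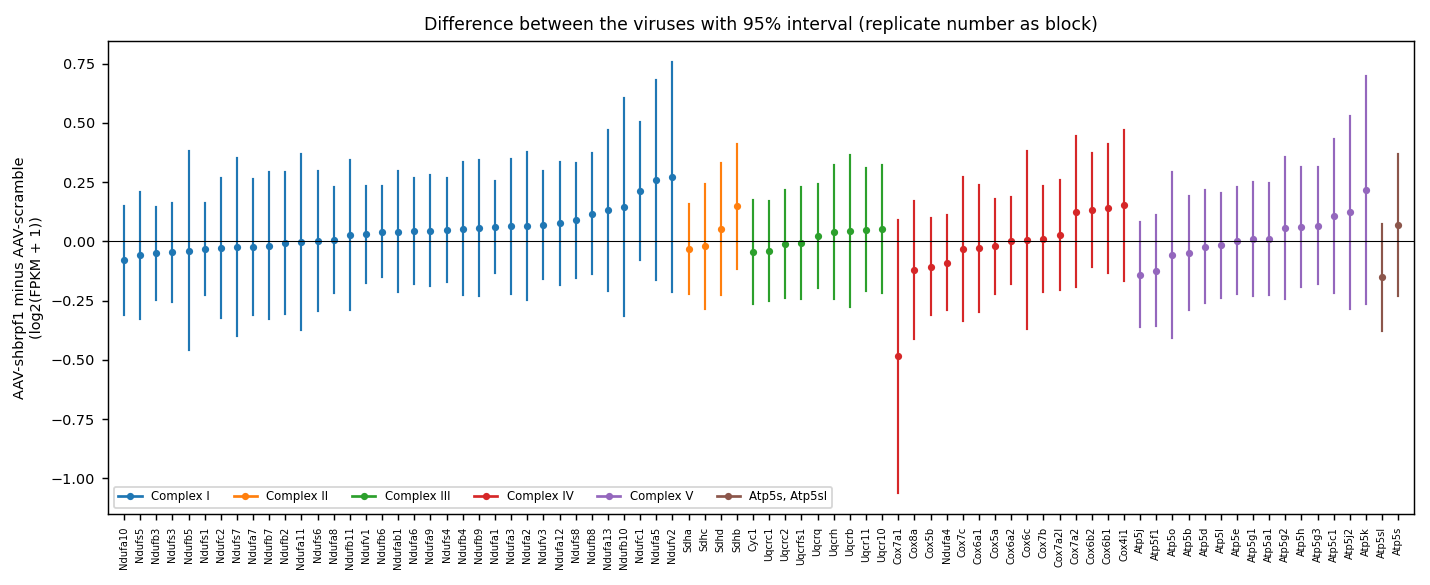
Difference between the viruses for 80 tested members. The vertical axis is AAV-shbrpf1 minus AAV-scramble in log2(FPKM + 1), points are estimates and bars the 95% intervals of limma's blocked fit (replicate number); genes are grouped by complex and ordered by estimate. Every bar crosses 0, and Cox7a1 has the estimate farthest from 0 (−0.48).

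Complex I oxidises NADH. Its 36 members ranged from a mean of 5.76 FPKM (Ndufab1, the mitochondrial acyl carrier protein) to 112 FPKM (Ndufa8, an accessory subunit). Ndufa8 had 98.1, 140.3 and 101 FPKM in AAV-shbrpf1 libraries 1 to 3 and 96.7, 128 and 111 FPKM in AAV-scramble libraries 1 to 3. Library 2 was the highest of its group and the groups overlapped. At the low end, Ndufb2 had 6.26, 5.69 and 6.11 FPKM under AAV-shbrpf1 and 7.81, 5.06 and 5.55 FPKM under AAV-scramble. Ndufab1 had 6.08, 5.70 and 5.76 FPKM under AAV-shbrpf1 and 6.34, 4.78 and 5.93 FPKM under AAV-scramble. In these low members library 2 was the lowest of its group.

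The members of complex I nearest to the threshold between the viruses were Ndufa5, Ndufc1 and Ndufv2. Ndufc1, an accessory subunit, had 14.0, 16.4 and 14.6 FPKM under AAV-shbrpf1 and 12.6, 11.4 and 14.6 FPKM under AAV-scramble, and its log2 difference was 0.21 (95% interval with the block −0.078 to 0.50). It was higher in 3 of 3 pairs, as were Cox6a2 and Cox6b2 (3 of 81 members, against 7.15% of all genes), and its limma adjusted p was 1. The difference was 0.14 without AAV-scramble library 2. With the block and without both libraries numbered 2 it was 0.073. Ndufa5, an accessory subunit of the matrix arm, had 37.7, 48.9 and 37.8 FPKM under AAV-shbrpf1 and 36.1, 28.3 and 39.1 FPKM under AAV-scramble. Its log2 difference was 0.26 with all libraries, 0.13 without AAV-scramble library 2, and 0.0074 with the block and without both libraries numbered 2. Ndufv2, an iron-sulfur core subunit, had 40.5, 40.0 and 44.6 FPKM under AAV-shbrpf1 and 40.3, 21.4 and 46.8 FPKM under AAV-scramble. Here 1 library stood low: the log2 difference was 0.27 with all libraries and −0.058 without AAV-scramble library 2.

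Complex II, succinate dehydrogenase, feeds electrons from the tricarboxylic acid cycle and has 4 subunits. Sdha, the flavoprotein, had 83.1, 61.1 and 62.1 FPKM under AAV-shbrpf1 and 81.8, 64.0 and 64.5 FPKM under AAV-scramble. Sdhb, the iron-sulfur protein, had 45.7, 74.1 and 50.9 FPKM under AAV-shbrpf1 and 42.0, 56.7 and 53.0 FPKM under AAV-scramble. Library 1 was thus the highest of its group for Sdha and the lowest for Sdhb. Sdhb had a log2 difference of 0.15 that did not pass (limma adjusted p = 1) and that was −0.056 without AAV-shbrpf1 library 2. Of the membrane anchors, Sdhd had 78.1, 73.6 and 56.6 FPKM under AAV-shbrpf1 and 78.7, 58.9 and 62.8 FPKM under AAV-scramble. Sdhc, the other anchor, had 32.1, 40.6 and 36.8 FPKM under AAV-shbrpf1 and 28.5, 39.8 and 44.2 FPKM under AAV-scramble. The groups overlapped for all 4 genes.

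In complex III, the cytochrome bc1 complex, Uqcr10 and Uqcrh were the most abundant and Uqcrq and Cyc1 the least. Uqcr10 had 154, 169 and 128 FPKM under AAV-shbrpf1 and 137, 150.1 and 146 FPKM under AAV-scramble. Uqcrh, the hinge protein, had 105, 115 and 113 FPKM under AAV-shbrpf1 and 95.9, 98.0 and 133 FPKM under AAV-scramble. Both overlapped between the groups. Cyc1, which encodes the haem-carrying cytochrome c1, had 40.2, 81.8 and 48.2 FPKM under AAV-shbrpf1 and 41.8, 76.3 and 54.7 FPKM under AAV-scramble. Uqcrq had 43.3, 61.4 and 51.3 FPKM under AAV-shbrpf1 and 43.1, 54.3 and 55.2 FPKM under AAV-scramble. In each group Cyc1 was lowest in library 1 and highest in library 2.

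The core proteins of complex III, Uqcrc1 and Uqcrc2, are partners in its matrix arm, and they went opposite ways between replicate numbers. Uqcrc1 (chr9:108936633-108949623, plus strand) had 49.7, 112 and 61.4 FPKM in AAV-shbrpf1 libraries 1 to 3 and 48.0, 112 and 69.4 FPKM in AAV-scramble libraries 1 to 3. Uqcrc2 had 72.7, 48.5 and 56.3 FPKM under AAV-shbrpf1 and 76.4, 43.0 and 61.8 FPKM under AAV-scramble. The ratio of Uqcrc1 to Uqcrc2 was 0.684, 2.32 and 1.09 under AAV-shbrpf1 and 0.629, 2.61 and 1.12 under AAV-scramble. In both groups, then, the libraries numbered 1 had less Uqcrc1 than Uqcrc2 and the libraries numbered 2 had more. This pair was chosen after its values were seen. The GC content of the coding transcripts was 56.8% for Uqcrc1 and 46.9% for Uqcrc2, and differences between numbers moved with GC content, as described below.

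In complex IV, cytochrome c oxidase, Cox6a1 and Cox6b1 were the most abundant. Cox6a1 had 216, 354 and 219 FPKM under AAV-shbrpf1 and 208, 331 and 259 FPKM under AAV-scramble. Cox6b1 had 313, 281 and 237 FPKM under AAV-shbrpf1 and 269, 231 and 251 FPKM under AAV-scramble. Neither separated the groups. Cox4i1, the subunit that carries the known isoform switch with Cox4i2, had 174, 309 and 230 FPKM under AAV-shbrpf1 and 127, 289 and 245 FPKM under AAV-scramble. Cox8a, the ubiquitous form of subunit 8, had 138, 245 and 198 FPKM under AAV-shbrpf1 and 178, 228 and 212 FPKM under AAV-scramble. Both were lowest in library 1 of each group. Cox7b had 99.2, 50.7 and 65.1 FPKM under AAV-shbrpf1 and 111, 47.1 and 61.2 FPKM under AAV-scramble. Ndufa4, first assigned to complex I and now known as a subunit of complex IV, had 94.7, 51.4 and 66.5 FPKM under AAV-shbrpf1 and 94.3, 58.1 and 71.3 FPKM under AAV-scramble. These last were highest in library 1 and lowest in library 2 of each group. Cox7a1, the heart and muscle isoform of subunit 7a, had 0.641 and 0.861 FPKM in AAV-shbrpf1 libraries 1 and 3 and was listed at 0 in library 2. Under AAV-scramble it had 1.69, 0.861 and 0.672 FPKM. Its log2 difference of −0.48 ± 0.32 (SE) did not pass limma (adjusted p = 1). It was −0.22 without AAV-shbrpf1 library 2 and −1.41 with a pseudocount of 0.1, and the values correspond to at most 10.6 estimated fragments a library.

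Complex V makes ATP. Its catalytic core genes led: Atp5b, the beta subunit, had 256, 353 and 227 FPKM under AAV-shbrpf1 and 263, 340 and 254 FPKM under AAV-scramble. Atp5a1, the alpha subunit, had 272, 276 and 232 FPKM under AAV-shbrpf1 and 264, 259 and 250 FPKM under AAV-scramble. The ratio of alpha to beta, which form the catalytic hexamer in equal number, was 1.06, 0.784 and 1.02 under AAV-shbrpf1 and 1.00, 0.762 and 0.984 under AAV-scramble. Their transcript levels, per length, were thus near equal in libraries 1 and 3, with less alpha than beta in library 2 of both groups. At the low end stood Atp5l, a membrane subunit, with 13.8, 11.4 and 14.9 FPKM under AAV-shbrpf1 and 15.1, 10.4 and 15.4 FPKM under AAV-scramble. Atp5j, coupling factor 6 of the stalk, had 25.0, 12.9 and 20.6 FPKM under AAV-shbrpf1 and 25.1, 15.9 and 22.7 FPKM under AAV-scramble. It was lower in 3 of 3 pairs, as was Atp5sl (2 of 81 members, against 11.3% of all genes). The log2 difference of Atp5j, −0.14, did not pass limma (adjusted p = 1) and was 0.12 without AAV-shbrpf1 library 2. Atp5j overlaps Gabpa, the gene of the GABP alpha chain, on the opposite strand. Gabpa had 7.16, 1.80 and 5.49 FPKM under AAV-shbrpf1 and 7.21, 2.34 and 5.20 FPKM under AAV-scramble. Without strand, reads from the shared stretch cannot be told apart. Atp5sl, an assembly protein of complex I listed elsewhere as Dmac2, had 7.01, 9.996 and 6.68 FPKM under AAV-shbrpf1 and 7.61, 10.7 and 8.25 FPKM under AAV-scramble, and its log2 difference of −0.15 did not pass limma (adjusted p = 1). With 1 library left out it ran from −0.31 (without AAV-shbrpf1 library 2) to −0.024 (without AAV-scramble library 2).

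Isoform sets were described as the share of each alternative isoform in the summed FPKM of its set. An exact permutation test of 3 against 3 cannot go below p = 0.1, so no share could pass a threshold of 0.05, and the shares are given as values. The isoforms known from heart and skeletal muscle are Cox6a2, Cox7a1 and Cox8b, and Cox6a2 is also known from parvalbumin interneurons of the mouse. Cox6a2 (chr7:128205435-128206387, minus strand, overlapping Itgad on the other strand) was well measured, with 154 to 504 estimated fragments a library. It took 10.9%, 9.06% and 5.87% of the Cox6a1 and Cox6a2 sum in AAV-shbrpf1 libraries 1 to 3, and 11.3%, 9.60% and 5.00% in AAV-scramble libraries 1 to 3. The means of 8.62% ± 2.56 and 8.64% ± 3.26 (SD, n = 3 each) differed by less than the spread of either group. Cox7a1 and Cox8b stayed at or below 1.02% of their sets in each library. The testis isoforms Cox6b2, Cox7b2 and Cox8c were low as well: Cox6b2 took 1.33%, 2.03% and 1.41% under AAV-shbrpf1 and 1.30%, 2.28% and 1.21% under AAV-scramble, Cox7b2 at most 0.285%, and Cox8c was listed at 0 throughout. Cox4i2 and Ndufa4l2, isoforms known to respond to low oxygen, took at most 0.280% and 0.988% of their sets. Of these low isoforms Cox4i2, Cox7b2, Cox8b and Ndufa4l2 rest on at most 8.3 estimated fragments a library.

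The 3 genes of the ATP synthase c ring encode the same mature protein with different import sequences. Atp5g3 took the largest share in each library, with 90.5, 137 and 90.9 FPKM under AAV-shbrpf1 and 95.1, 113 and 91.1 FPKM under AAV-scramble. Atp5g2 took 20.7%, 27.0% and 27.3% under AAV-shbrpf1 and 17.6%, 27.5% and 30.7% under AAV-scramble. Atp5g1 took 15.2%, 15.0% and 14.0% under AAV-shbrpf1 and 15.7%, 15.4% and 14.3% under AAV-scramble. The Atp5g1 share ran from 14.0% to 15.7% over the 6 libraries and that of Atp5g2 from 17.6% to 30.7%. Cox7a2l, which joins complexes III and IV in supercomplexes, took 43.5%, 32.9% and 51.5% of the Cox7a set under AAV-shbrpf1 and 39.9%, 39.1% and 53.1% under AAV-scramble. Its level was 74.2, 50.6 and 96.4 FPKM under AAV-shbrpf1 and 66.1, 48.3 and 107 FPKM under AAV-scramble. It was highest in the libraries numbered 3 of both groups, and Cox7a2 made up nearly all of the rest.

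**Figure D3:**
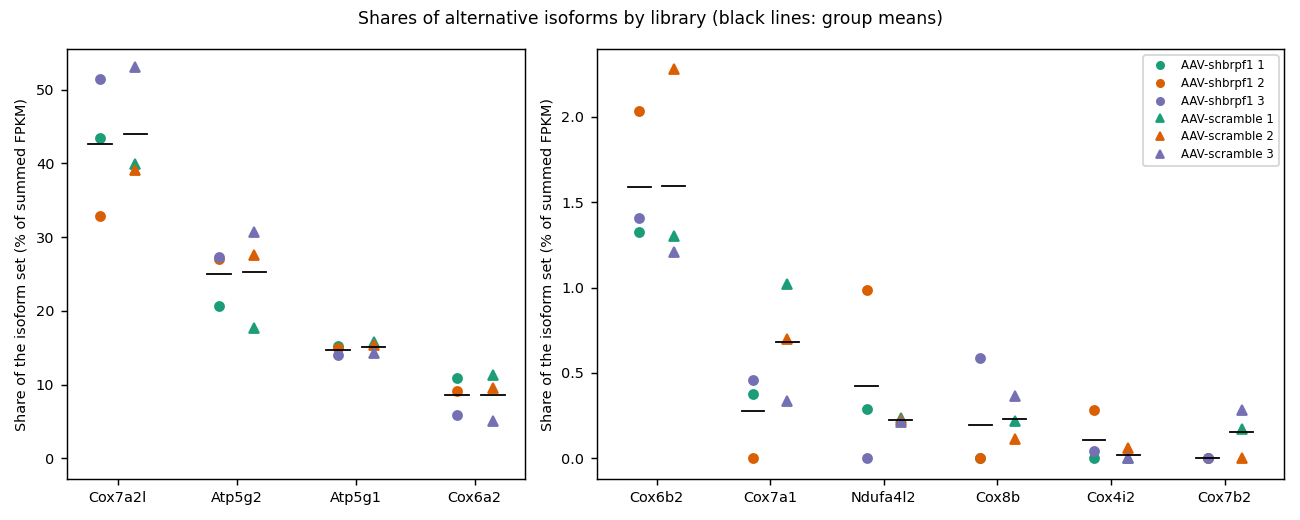
Shares of alternative isoforms in the summed FPKM of their sets, in percent, with the 4 larger shares on the left and 6 smaller ones on the right (the vertical axes differ). Circles are AAV-shbrpf1 and triangles AAV-scramble libraries, colours give the replicate number and black lines the group means. The group means of Cox6a2 coincide at 8.62% and 8.64%, and both libraries numbered 3 lie below the others.

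Libraries with the same replicate number resembled each other more than libraries with the same virus. The median size of the difference within a pair was 0.14 on the log2 scale over the members (0.13 over all genes), and the median range between the 3 numbers was 0.53 (0.73 over all genes). These are unlike measures, since the first is the middle of 3 differences and the second runs from the lowest to the highest of 3 numbers. Their sizes are therefore not directly comparable. Between numbers, 47 of 81 members passed the F test of limma, fitted with virus as a term (58.0%), against 69.4% of all genes. Of these 47, number 2 was the highest in 29, the lowest in 15 and between the others in 3. Of the 8876 genes that passed among all tested, it was the highest in 2397, the lowest in 5343 and between in 1136. These counts depended on the scaling and on single libraries. In the fits that follow, the share of all genes in each direction was not counted, so their splits have no background beside them. With TMM scaling 60 members passed (74.1%, against 67.2% of genes), 47 with number 2 highest and 10 with it lowest, and with quantile scaling 45 passed (55.6%, against 67.3%), 23 with it highest and 16 lowest. Without AAV-shbrpf1 library 2, 36 members passed (44.4%, against 61.1%), 13 with number 2 highest and 18 lowest, so that the split turned round. Without AAV-shbrpf1 library 1, 17 of 81 members passed, against 41.7% of genes, 9 with it highest and 8 lowest. Without AAV-scramble library 1, 16 passed (20.0%, against 37.7%), with 8 each way. What the numbers stand for is not in the labels. Other measures also moved with the numbers. Of the 10 markers of GABAergic interneurons, 9 passed between numbers, 3 with number 2 highest and 3 with it lowest. Npy had 48.1, 176 and 125 FPKM under AAV-shbrpf1 and 40.4, 216 and 191 FPKM under AAV-scramble. Slc32a1 was also highest in library 2 of each group, but Gad1 and Gad2 were highest in library 1 of each group. Radial glia markers summed to 939, 286 and 804 FPKM under AAV-shbrpf1 and 892, 317 and 806 FPKM under AAV-scramble. Fabp7 made up most of these sums, with 758, 169 and 570 FPKM under AAV-shbrpf1 and 730, 187 and 581 FPKM under AAV-scramble. Vim was also highest in library 1 of each group, but Slc1a3, Sox2 and Nes were highest in library 3, and Hes5 was lowest in library 1. Ribosomal RNA features took 4.63%, 14.1% and 2.68% of estimated fragments under AAV-shbrpf1 and 3.11%, 9.30% and 3.26% under AAV-scramble. Markers of the oligodendrocyte lineage summed to 129, 210.3 and 262 FPKM under AAV-shbrpf1 and 112, 222 and 279 FPKM under AAV-scramble. Olig1, Olig2 and Mbp had the same order as these sums. Pdgfra was lowest in library 2 of each group, while Sox10 and Cspg4 were highest there. Cycling markers summed to 66.4, 30.4 and 56.8 FPKM under AAV-shbrpf1 and 62.8, 34.6 and 62.6 FPKM under AAV-scramble. The sum of the astrocyte markers was lowest in library 2 and highest in library 3 of each group. Sparcl1 and Gja1 had the same order, while Gfap and Aqp4 were highest in library 1 and Aldoc was lowest there. Mural markers summed to 29.5, 10.5 and 10.1 FPKM under AAV-shbrpf1 and 30.3, 12.3 and 11.4 FPKM under AAV-scramble. Among them Acta2, smooth muscle actin, stood at 11.6 FPKM in AAV-shbrpf1 library 1 and 11.5 FPKM in AAV-scramble library 1, and at or below 0.407 FPKM in the others. Tagln was also highest in library 1 of each group. Notch3, the mural marker with the highest mean, was lowest there, with 3.89, 8.88 and 7.67 FPKM under AAV-shbrpf1 and 2.69, 10.6 and 8.79 FPKM under AAV-scramble. Pdgfrb did not pass between numbers. The part of these measures in the members' levels was not tested. Members passed in each complex: 19 of 36 in I, 2 of 4 in II, 6 of 9 in III, 9 of 15 in IV and 9 of 15 in V. The median log2 difference between libraries numbered 2 and 1 was 0.28 over the members and −0.25 over all genes, and 0.16 over the members without AAV-shbrpf1 library 2. It stayed positive over the members with TMM (0.54) and quantile scaling (0.14), which moved the median of all genes to −0.031 and 0.029. With the GC trend removed it was −0.011 over the members and −0.22 over all genes.

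The smallest p between numbers among the members was that of Cox6a2. It had 26.5, 35.3 and 13.6 FPKM in AAV-shbrpf1 libraries 1 to 3 and 26.5, 35.1 and 13.6 FPKM in AAV-scramble libraries 1 to 3. Paired libraries were thus nearly equal, with log2 differences of 0.00151, 0.00471 and 0.00235 for numbers 1, 2 and 3, while number 2 exceeded number 3 by 1.31 (limma F test, adjusted p = 0.00227). Its ubiquitous counterpart Cox6a1 had a difference of 0.52 between numbers 2 and 3. Of 6 striated muscle markers only Actn2, an actinin of muscle that neurons also express, passed the filter, at 1.40, 2.12 and 1.04 FPKM under AAV-shbrpf1 and 1.53, 2.27 and 1.13 FPKM under AAV-scramble. The 6 muscle markers summed to 1.98, 3.02 and 1.87 FPKM under AAV-shbrpf1 and 2.14, 3.43 and 2.12 FPKM under AAV-scramble. The part of these markers in the level of Cox6a2 was not tested.

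After Cox6a2 came Uqcrc1, described above, at 1.19 for number 2 minus number 1 (limma F test, adjusted p = 0.00238). Ndufs1, the largest core subunit of complex I, came next. It had 21.2, 9.27 and 13.8 FPKM under AAV-shbrpf1 and 21.6, 9.84 and 13.8 FPKM under AAV-scramble, a difference of −1.08 for number 2 minus number 1 (limma F test, adjusted p = 0.00244). The libraries numbered 1 held the most Ndufs1 and those numbered 2 the least, in both groups. Ndufs1 overlaps 3 annotated genes on the other strand, Eef1b2 among them. At the other end, Cox7a2, Ndufb5 and Ndufa5 had the largest p. Cox7a2 had 95.8, 103 and 90.1 FPKM under AAV-shbrpf1 and 97.8, 74.4 and 93.9 FPKM under AAV-scramble. Ndufb5 had 9.71, 14.9 and 11.6 FPKM under AAV-shbrpf1 and 13.5, 10.9 and 12.6 FPKM under AAV-scramble, so that no number was high or low in both groups.

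Transcript ratios between partner subunits also varied from number to number. The pairs given here were chosen after their values were seen. The ratio of Cox4i1 to Cox7b in complex IV was 1.76, 6.10 and 3.53 under AAV-shbrpf1 and 1.15, 6.13 and 4.01 under AAV-scramble. Atp5d to Atp5f1, a stalk subunit of the F1 head and one of the peripheral stalk, gave 0.787, 3.18 and 1.46 under AAV-shbrpf1 and 0.634, 2.89 and 1.60 under AAV-scramble. In each of these pairs the ratio was lowest in library 1 and highest in library 2 of both groups. Cyc1 to Uqcrb gave 0.510, 1.70 and 0.860 under AAV-shbrpf1 and 0.468, 2.09 and 0.918 under AAV-scramble. The first gene of each pair had the higher GC content in its coding transcripts. It was 57.6% for Cox4i1 and 42.0% for Cox7b, 61.1% for Atp5d and 44.6% for Atp5f1, and 62.3% for Cyc1 and 42.2% for Uqcrb. The part of GC content in the ratios was not tested.

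**Figure D4:**
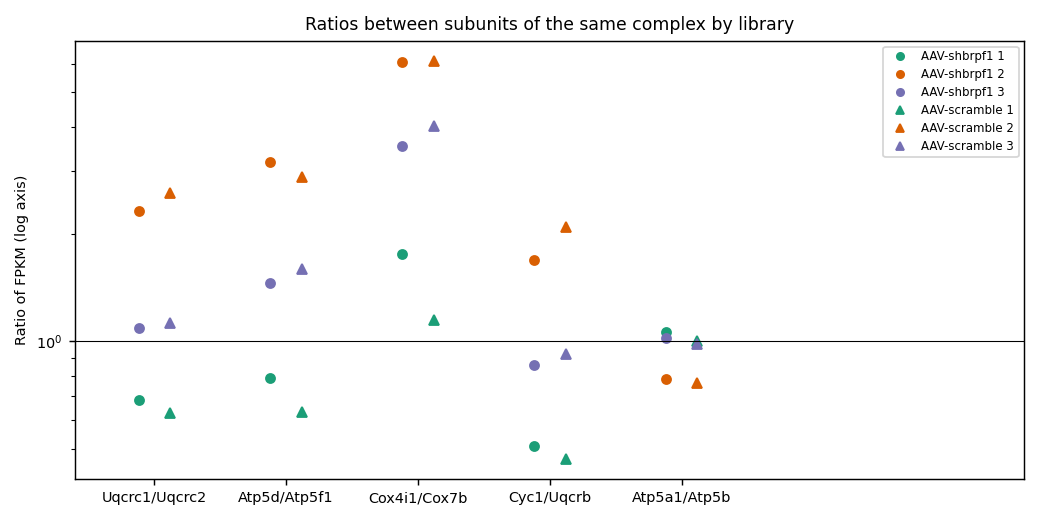
Ratios of FPKM between subunits of one complex, by library, on a log axis. Circles are AAV-shbrpf1 and triangles AAV-scramble libraries, and colours give the replicate number. The 4 pairs chosen after their values were seen have their highest ratio in the libraries numbered 2 and their lowest in those numbered 1, and Atp5a1 to Atp5b stays between 0.762 and 1.06.

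The size and sign of the difference between numbers moved with GC content, the share of G and C bases in a gene's annotated coding transcripts (median over transcripts). Across the 81 members, Spearman's rho between GC content and the difference of number 2 minus number 1 was 0.80, and across 11337 protein-coding genes it was 0.78; genes are not independent, and these genes share the same libraries. With transcript length rho was 0.045 over the members. The 7 members under 45% GC had a median difference of −0.88, the 19 from 45% to 50% one of −0.33, the 33 from 50% to 55% one of 0.31 and the 22 above 55% one of 0.71. For all coding genes in the same classes the medians were −1.21, −0.63, 0.033 and 0.50. When the GC trend was removed within each library, 20 of 81 members passed between numbers (background 50.1% of genes in that fit), 16 of them among the 47 above. Cox6a2 still passed, at 1.19 for number 2 minus number 3 (limma adjusted p = 0.0051), as did Ndufs1, Atp5j and Cox7a2l. Uqcrc1 passed with its difference of number 2 minus number 1 reduced to 0.56, against 1.19 before. Cox7b, Cyc1, Ndufs4, Uqcrc2 and Cox4i1 no longer did. The annotated coding transcripts behind the GC content had a median length of only 651 bases for Ndufs1 and 533 bases for Uqcrc1. The part of such short annotations in these results was not tested.

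**Figure D5:**
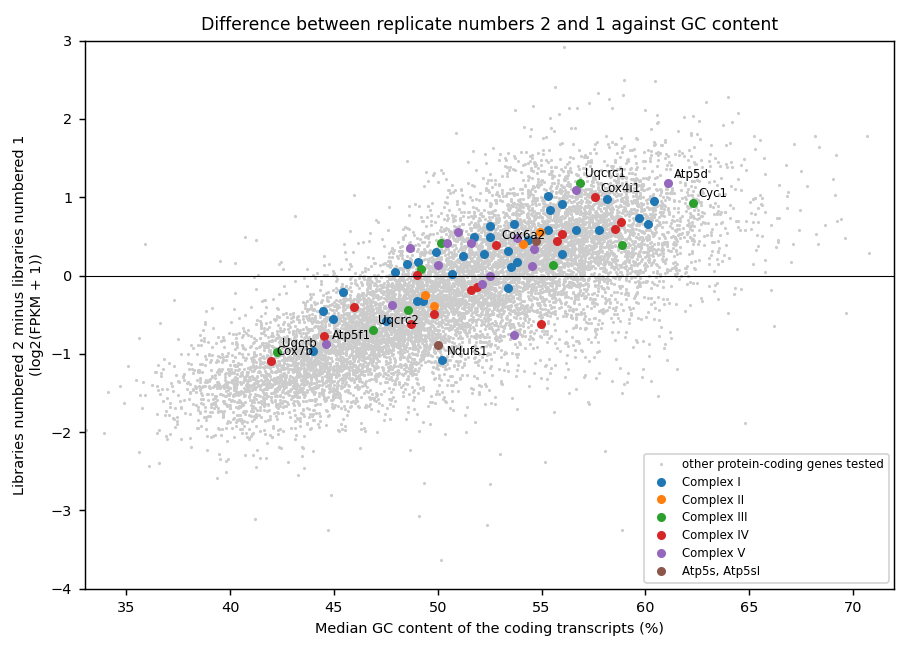
GC content of the coding transcripts (horizontal axis, percent) against the difference of libraries numbered 2 minus libraries numbered 1 (vertical axis, log2(FPKM + 1)). Coloured points are 80 tested members by complex and grey points the other protein-coding genes tested. Members lie within the grey cloud, from Cox7b at low GC (−1.09) to Uqcrc1 (1.19) and Atp5d (1.18) at high GC.

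Other genes of the pathway were counted in the same fits, and none of them passed between the viruses. Among assembly factors, which build the complexes, 45 of 47 were tested and 0 passed limma with or without the block (1 and 2 were at an unadjusted p under 0.05 without and with it), while 20 of the 45 passed between numbers, where 69.4% of all genes did. The most abundant were Uqcc2, a complex III factor, with 38.5, 88.7 and 63.3 FPKM under AAV-shbrpf1 and 34.2, 66.6 and 73.4 FPKM under AAV-scramble, and Coa3, a complex IV factor, with 44.96, 74.0 and 45.7 FPKM under AAV-shbrpf1 and 37.3, 63.3 and 51.7 FPKM under AAV-scramble. Of 12 regulators of transcription of these genes, 0 passed between the viruses and 8 between numbers. Ppargc1a, the coactivator PGC-1alpha, had 20.0, 7.96 and 13.5 FPKM under AAV-shbrpf1 and 20.0, 10.7 and 10.4 FPKM under AAV-scramble. Yy1, whose binding string was counted in the promoters, had 11.7, 5.37 and 11.7 FPKM under AAV-shbrpf1 and 12.1, 6.53 and 10.8 FPKM under AAV-scramble. Both were at their highest in libraries numbered 1 and overlapped between the groups. Cytochrome c (Cycs) had 47.9, 18.9 and 26.0 FPKM under AAV-shbrpf1 and 48.3, 20.6 and 28.1 FPKM under AAV-scramble. Both it and Atpif1, the inhibitor of the ATP synthase, passed between numbers and not between the viruses. Of 16 genes of mitochondrial content and 10 of the tricarboxylic acid cycle, 0 passed between the viruses, and 13 and 7 passed between numbers. Vdac1, the main channel of the outer membrane, had 195, 207 and 149 FPKM under AAV-shbrpf1 and 171, 204 and 155 FPKM under AAV-scramble. Slc25a4, an ADP/ATP carrier, had 231, 119 and 121 FPKM under AAV-shbrpf1 and 227, 119 and 131 FPKM under AAV-scramble. Library 1 held the most Slc25a4 in both groups. Mdh2, malate dehydrogenase, had 79.8, 133 and 72.8 FPKM under AAV-shbrpf1 and 72.03, 122.6 and 80.9 FPKM under AAV-scramble. Library 2 held the most Mdh2 in each group.

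The 13 subunits encoded in the mitochondrial genome went the other way from the nuclear median between numbers 2 and 1. They summed to 60820, 11401 and 29736 FPKM in AAV-shbrpf1 libraries 1 to 3 and to 56360, 16021 and 31708 FPKM in AAV-scramble libraries 1 to 3. All 13 passed between numbers, where 69.4% of all genes did, and 0 passed between the viruses. Of the 13, 12 passed with number 2 lowest, where 41.8% of all genes did. The median difference of number 2 minus number 1 was −2.06 among them, against 0.28 among the nuclear members and −0.25 over all genes. Its part in the nuclear levels was not tested. With ribosomal RNA features and mitochondrial genes left out and the rest rescaled, 46 members passed between numbers (56.8%, against 69.1% of genes).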

How the data were processed

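Per the labels' protocols, total RNA was read from both ends on an Illumina HiSeq for 6 libraries, 3 with AAV-shbrpf1 and 3 with AAV-scramble. The authors deposited 1 table of expression values, taken here to be FPKM, that is, scaled for gene length and for depth. Its header names no unit; the reading rests on the values, which are fractional, have unequal totals and form steps once multiplied by length. The submitters' processing notes name FastQC, StringTie and DESeq2, with neither version nor role, and the build mm9. Of 55154 gene identifiers found in GENCODE M21 (GRCm38), 54899 have the same start and end, so coordinates are those of GRCm38. The aligner, annotation and strandedness were not given in the sources used here. FPKM depends on the transcripts chosen, and 38 of the 86 members overlap another annotated gene.

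The filter kept genes that averaged 1 FPKM or more in either group. The test was limma (version 3.58.1, under R 4.3.3), two-sided with a trend, on log2(FPKM + 1), with Benjamini-Hochberg adjustment over the 12792 genes tested and a threshold of 0.05. Differences on this scale understate the change of low genes. For replicate numbers, the F test of limma was run on a model that also held the virus. No scaling was added; TMM factors (trimmed means of log ratios) were computed as an alternative. Depth was estimated from the steps of 11673 genes with a single exon, and fragments per gene from depth, FPKM and the median length of coding transcripts. Whole reads were not recovered, so no count test was used. The fits were tested on simulated data.

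Deviations from the group means correlated between libraries of the same number at 0.87, 0.83 and 0.57 for numbers 1, 2 and 3, so the numbers were taken to pair the libraries; the labels do not say what they stand for. The members and lists were chosen with earlier results of these data known. Named with values were the 2 highest and 2 lowest members of each complex, all members of the isoform sets, the 3 members of smallest p in each direction between the viruses in either fit, the 3 of smallest and largest p between numbers, and the 2 most abundant genes of the pathway lists, except some that are not reported here; other names were chosen after their values were seen. Alternatives were other pseudocounts, filters, scalings, a fit without trend, the replicate block and each library left out, with the removal of ribosomal and mitochondrial RNA and of the GC trend (lowess within each library) added after seeing the data.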

Additional observations from a re-analysis of the deposited data

How the results depend on the processing

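No member passed between the viruses under any alternative run, including the replicate block, where the count of members stayed at 0. Over all genes the count was 0 with all libraries and 0 to 8 with the replicate block and 1 pair left out (8 without the libraries numbered 2, 1 without those numbered 3). The median difference of the members ran from −0.056 to 0.095 with each library left out. With 1 library left out, the sign turned for Atp5j (0.12 without AAV-shbrpf1 library 2), Sdhb (−0.056 without the same library) and Ndufv2 (−0.058 without AAV-scramble library 2, and −0.030 with the replicate block and without the libraries numbered 2); over all libraries left out in turn they ran from −0.34 to 0.12, from −0.056 to 0.29 and from −0.058 to 0.49 in that order. None of them passed in these fits, and the cause was not tested. Between replicate numbers, the count of all genes was 5493 with the stricter filter, which tests fewer genes, and 4793 to 8885 with each library left out. The count of members was 27 of 85 with no filter (31.8%, against 23.2% of genes, the reverse order of 58.0% against 69.4% in the reported fit), 20 with the GC trend removed (24.7% against 50.1%), and 16 to 54 with each library left out, the lowest values being those without AAV-scramble library 1 and AAV-shbrpf1 library 1. The block changed no call. Shares of the isoforms Cox4i2, Cox8b and Ndufa4l2 moved by more than their spread with 1 library left out; they rest on few fragments.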
